A study of Mus musculus with 2 samples.

Results

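The NRF2 pathway was examined through 10 genes: the transcription factor gene Nfe2l2, the gene of its inhibitor Keap1, and 8 targets, Hmox1, Nqo1, Gclc, Gclm, Srxn1, Txnrd1, Gsr and Osgin1. They were found as the non-control spots that carry these gene names in both scanner files, which gave 12 of 43020 non-control spots. All 10 genes were measured on both arrays, among 19818 measured genes in all. The study grew 661W, a mouse photoreceptor cell line, for 3 days in choline-deficient or in choline-sufficient DMEM/F12 medium and hybridised Cy3-labelled RNA to Agilent single-colour arrays. The tested condition is medium without choline, on 1 array, and its counterpart is medium with choline, stated as 8.98 g/L, also on 1 array. That concentration is printed as the labels give it, is high for this medium, and could not be checked. Per the labels both share the cell line, antibiotics and 10% fetal bovine serum, whose own choline content is not given. The design text speaks of RNA pooled from 4 dishes and does not say whether that is per condition.

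NRF2, the product of Nfe2l2, is a transcription factor that is bound by KEAP1 and handed to a CUL3 ubiquitin ligase for breakdown. Oxidants and electrophiles modify KEAP1, and NRF2 that escapes pairs with a small MAF protein on antioxidant response elements beside genes of glutathione synthesis, thioredoxin recycling, quinone detoxification and heme breakdown. In the retina the pathway is known for its part in the defence of photoreceptors against oxidative and light damage.

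The 8 targets differed in direction. Without choline Hmox1, Txnrd1 and Gclc were more than 1.5-fold lower, and Nqo1 was just over 1.5-fold higher. The other 6 genes were less than 1.5-fold apart, with Nfe2l2 itself almost level. Each condition has 1 array, so the differences carry no check by replicates and are given without a test. Levels are given as multiples of each array's 75th percentile, which was a signal of 1609 on the choline-deficient and 1280 on the choline-sufficient array. Differences are log2 values, choline-deficient minus choline-sufficient. The value after a ± sign comes from the scanner software's error for each spot and holds no part for variation between cultures. It was 0.20 for each of the 10 genes because the software sets a floor of 10% under every signal. The differences of 7 of the 10 genes were over 2 such errors. The median error over all measured genes was also 0.20, and how many of them pass 2 errors was not counted. That count of 7 therefore has no share over all genes beside it.

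At the 1.5-fold size 1 of the 10 genes was higher and 3 were lower. Over all 19818 measured genes the shares past these sizes were 14.8% and 14.1%. At 2-fold, 0 of the 10 were higher and 2 were lower, where the shares over all genes were 7.67% and 3.88%. The median over the 10 genes was -0.41, against -0.10 over all measured genes, and 6 of the 10 lay below 0, as did 57.4% of all genes.

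The 12 spots were between 17.1 and 1049 times as bright as their local background, and 0 of them were outliers or saturated. Over all non-control spots the share well above background was 70.7% with choline-deficient and 68.5% with choline-sufficient medium. Of 12 cone photoreceptor markers 6 were measured. Their summed level was 0.44 times the 75th percentile on the choline-deficient and 0.29 times on the choline-sufficient array. Most of it was Gnat2, at 0.23 and 0.15, and Gngt2, at 0.16 and 0.096. Arr3 differed by -0.41, and the others measured were higher without choline, though Opn1mw and Pde6h changed sign under another processing choice. Pde6c cleared background on the choline-sufficient array only, and Cnga3 and Guca1a on the choline-deficient array only. Neither array had a signal well above background for the cone opsin gene Opn1sw or the photoreceptor transcription factor gene Crx. Of 4 fibroblast markers 3 were measured, with a summed level of 65.2 on the choline-deficient and 7.55 on the choline-sufficient array. Nearly all of that sum was the collagen gene Col1a2, at 62.3 and 7.31. The collagen gene Col1a1 was at 2.81 and 0.21, and Dcn was at 0.035 and 0.023. Lum, the other one, did not clear background on either array. Of 6 Müller glia markers 3 were measured, with a summed level of 2.17 on the choline-deficient and 1.15 on the choline-sufficient array. Most of the difference between these sums was Slc1a3, at 1.28 and 0.40. Glul was at 0.85 and 0.71, and Gfap, at 0.039 and 0.041, was slightly lower without choline. Rlbp1 cleared background on the choline-deficient array only, and Kcnj10 and Sox2 did not clear it on either. Levels of different probes are not comparable, so these sums do not rank the cell types. The part of these markers in the results below was not tested. In RNA from a whole culture, fewer cells of a type and less RNA per cell cannot be told apart.

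**Figure D1:**
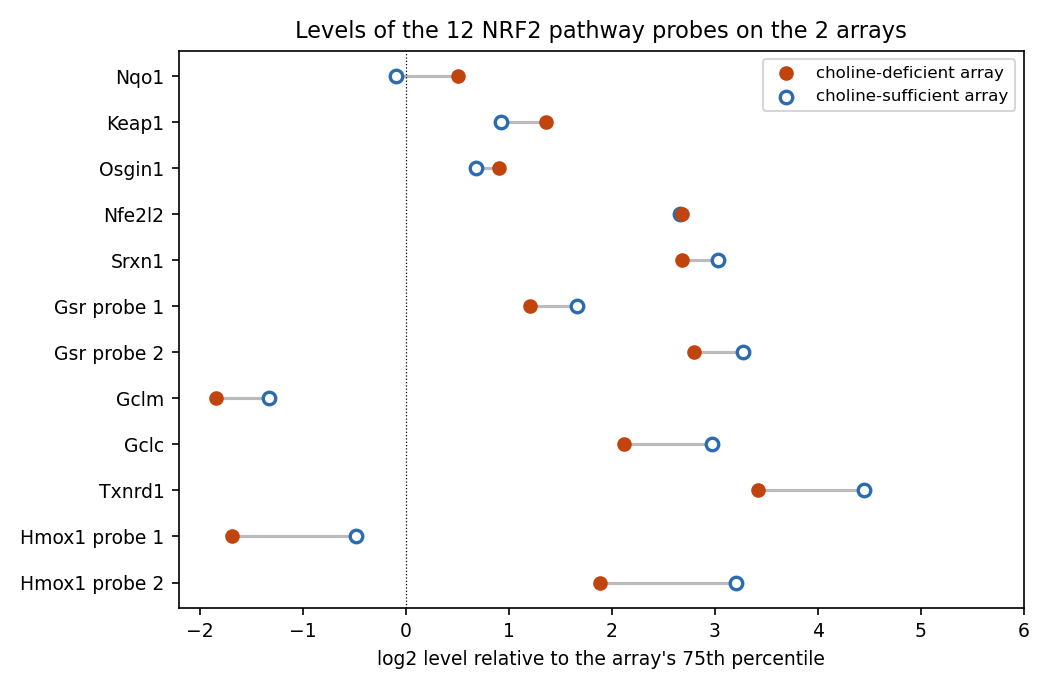
Log2 level of each NRF2 pathway probe relative to its array's 75th percentile, for the choline-deficient array (filled) and the choline-sufficient array (open), in order of the difference. Nqo1, Keap1 and Osgin1 lie to the right on the choline-deficient array, Nfe2l2 coincides, and the probes of Srxn1, Gsr, Gclm, Gclc, Txnrd1 and Hmox1 lie to the left. Levels of different probes are not comparable.

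Nfe2l2 was read by a probe at chromosome 2, 75513771 to 75513830 on mm9. Its raw signal was 10350 on the choline-deficient and 8126 on the choline-sufficient array, which after scaling is 6.43 and 6.35 times the 75th percentile. The log2 difference was 0.02 ± 0.20, the only 1 of the 10 within 1 scanner error of 0. The raw signals differ by about as much as the 75th percentiles of the arrays do. Its sign depended on the scaling, at -0.10 with median scaling and 0.29 with spike-in scaling.

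Keap1, whose product holds NRF2 in the cytoplasm, was somewhat higher without choline. Its signal was 4133 on the choline-deficient and 2431 on the choline-sufficient array, or 2.57 and 1.90 times the 75th percentile, a log2 difference of 0.43 ± 0.20. It stayed short of 1.5-fold under 8 of 9 other processing choices and passed that size with spike-in scaling, at 0.71. The gap between Keap1 and Nfe2l2, 0.42 in log2, was 0.30 after quantile normalization and 0.19 after normexp. The Keap1 probe is shown because its 60 bases are placed over 441 bases of the genome (chr9:21035292-21035732 on mm9, minus strand).
Keap1 probe: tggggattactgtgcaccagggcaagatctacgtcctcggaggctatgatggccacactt

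Hmox1, which encodes the inducible heme oxygenase that opens the heme ring to biliverdin, iron and carbon monoxide, had the largest difference of the 10 genes. The probe at chromosome 8, 77624207 to 77624266, gave a signal of 5967 on the choline-deficient and 11787 on the choline-sufficient array. A separate probe upstream of it gave 501.4 and 914.2. After scaling, the log2 differences of the 2 probes were -1.31 and -1.20, so both probes were more than 2-fold lower without choline. The mean was -1.26 ± 0.20, or 2.39-fold lower, at percentile 2.03 of all measured genes. Over 9 other processing choices the difference ran from -1.37 to -0.98, and only spike-in scaling, at -0.98, took it inside 2-fold. The upstream probe is shown because it reads another stretch of the transcript and gave a like value (chr8:77620797-77620856 on mm9, plus strand).
Hmox1 upstream probe: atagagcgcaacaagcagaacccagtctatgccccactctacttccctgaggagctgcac

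Txnrd1 encodes the cytosolic thioredoxin reductase, which uses NADPH to keep thioredoxin reduced. It was read by a probe at chromosome 10, 82360230 to 82360289, with a signal of 17226 on the choline-deficient and 28014 on the choline-sufficient array. These are 10.7 and 21.9 times the 75th percentile, a log2 difference of -1.03 ± 0.20, or 2.05-fold lower without choline. The call at 2-fold was lost under 3 scalings, with -0.82 after quantile normalization, -0.80 after cyclic loess and -0.76 with spike-in scaling. It stayed past 1.5-fold under every one of the 9 choices.

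Srxn1, which encodes the sulfiredoxin that restores overoxidised peroxiredoxins, belongs to the same thiol defence and differed less. Its signals were nearly equal before scaling, at 10352 on the choline-deficient and 10463 on the choline-sufficient array. After scaling they were 6.43 and 8.18 times the 75th percentile, a log2 difference of -0.35 ± 0.20, and with spike-in scaling the difference was -0.07. It was lower under each of the 9 choices, by an amount that depended on the scaling.

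Glutathione is made by glutamate-cysteine ligase, with the catalytic subunit encoded by Gclc and the modifier subunit by Gclm, and is kept reduced by glutathione reductase, encoded by Gsr. All 3 genes were lower on the choline-deficient array. Gclc had a signal of 6995 there and of 10078 on the choline-sufficient array, or 4.35 and 7.88 times the 75th percentile. Its log2 difference of -0.86 ± 0.20, or 1.81-fold lower, stood at percentile 5.92 of all measured genes and was -0.59 with spike-in scaling, at the edge of 1.5-fold. Gclm had a signal of 449.5 on the choline-deficient and 511.6 on the choline-sufficient array. Its difference of -0.52 ± 0.20 was short of 1.5-fold, and reached it with median scaling, at -0.64, and after quantile normalization, at -0.61. The difference of Gclc minus that of Gclm was -0.34 in log2, smaller than 2 scanner errors of either gene. It was -0.19 after cyclic loess and -0.11 after quantile normalization. The Gclm probe is shown because its 60 bases too are placed over a longer stretch, of 2636 bases (chr3:121962174-121964809 on mm9, plus strand).
Gclm probe: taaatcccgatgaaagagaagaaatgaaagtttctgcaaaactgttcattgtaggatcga

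Gsr was read by 2 neighbouring probes at chromosome 8, 34808413 to 34808472 and 34808488 to 34808547. The probe at the lower position gave 3712 on the choline-deficient and 4052 on the choline-sufficient array, and its neighbour gave 11214 and 12365. The log2 differences were -0.46 and -0.47, so the probes lay closer together than 0.20, the scanner error. The gene's mean of -0.46 ± 0.20 was short of 1.5-fold under each of the 9 other choices.

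Nqo1 and Osgin1 went the other way. Nqo1 encodes the quinone reductase that is a standard readout of NRF2 activity, and its probe lies at chromosome 8, 109912440 to 109912499. Its signal was 2283 on the choline-deficient and 1201 on the choline-sufficient array, or 1.42 and 0.94 times the 75th percentile. The log2 difference was 0.60 ± 0.20, or 1.51-fold higher, at percentile 85.5 of all measured genes. Nqo1 sits at the edge of the 1.5-fold size, 0.58 in log2, and was 0.48 when arrays were scaled to their medians and 0.87 with spike-in scaling. Osgin1, which encodes a growth inhibitor induced by oxidative stress, had 3018 on the choline-deficient and 2053 on the choline-sufficient array, a log2 difference of 0.23 ± 0.20. That difference is about as large as its error.

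**Figure D2:**
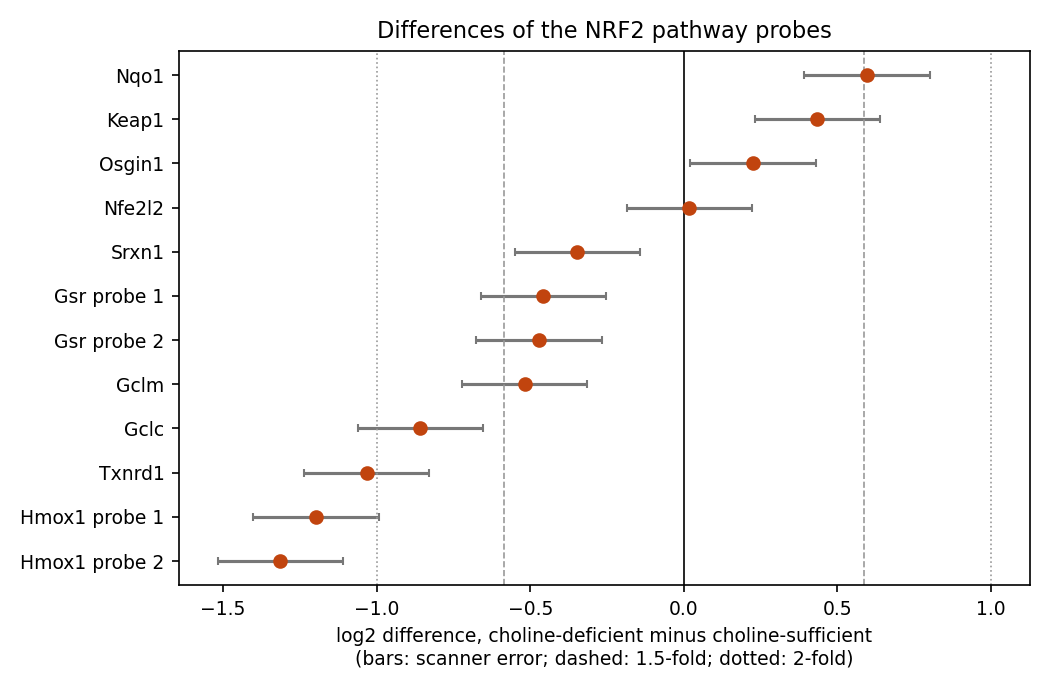
Log2 difference of each NRF2 pathway probe, choline-deficient minus choline-sufficient, with the scanner error of 0.20 as bars and with 1.5-fold and 2-fold marked by dashed and dotted lines. Both Hmox1 probes and Txnrd1 lie beyond 2-fold on the lower side, Gclc lies between the lines, and Nqo1 touches the 1.5-fold line on the higher side.

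Targets also differed from each other. Nqo1 was higher relative to Hmox1 by 1.85 in log2, or 3.61-fold, on the choline-deficient array, and relative to Txnrd1 by 1.63, or 3.09-fold. These gaps compare the difference of a gene with that of another, so a constant scaling of an array leaves them as they are. Quantile normalization, which is no constant scaling, gave 1.81 for Nqo1 against Hmox1 and 1.41 for Nqo1 against Txnrd1.

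**Figure D3:**
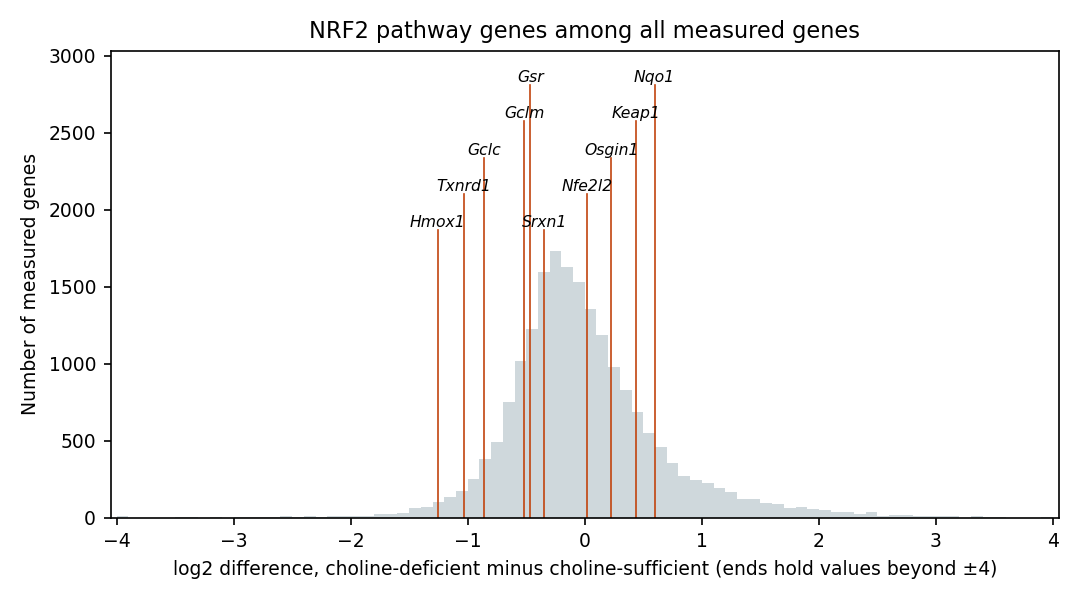
Number of measured genes by log2 difference, choline-deficient minus choline-sufficient, in bins of 0.1, with the 10 NRF2 pathway genes as lines. Hmox1, Txnrd1 and Gclc stand in the lower tail, Srxn1, Gsr, Gclm and Nfe2l2 in the body, and Nqo1 on the upper shoulder.

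Proteins that NRF2 works with were read from a list of 15 genes, all measured. Past 1.5-fold 1 of them was higher and 4 were lower, where 14.8% and 14.1% of all measured genes were. The counts were 0 higher and 6 lower with median scaling, and 3 higher and 3 lower with spike-in scaling. Shares over all genes were not counted under the other choices. The median was -0.25, against -0.10 over all genes. Spike-in scaling moves both alike, to 0.02 and 0.18, and so leaves their gap as it is. Under choices that can change the gap, the medians of the list and of all genes lay close together. They were -0.11 and -0.10 after quantile normalization, -0.01 and -0.01 after cyclic loess, and -0.23 and -0.20 after normexp. The 4 lower genes were Mafg and Mafk, which encode small MAF partners of NRF2, Sqstm1, which encodes the autophagy receptor p62 that can draw KEAP1 away, and Gsk3b, whose kinase marks NRF2 for breakdown. Mafg stood at 4.52 times the 75th percentile on the choline-deficient and 9.97 times on the choline-sufficient array, a log2 difference of -1.14 ± 0.20, and its 4 probes lay between -1.37 and -0.99. Sqstm1 differed by -1.04, Mafk by -0.93 and Gsk3b by -0.65, which was -0.38 with spike-in scaling. Maff, the remaining small MAF gene, differed by -0.27, and Cul3 by 0.07. Bach1, which encodes the repressor that competes with NRF2 on the Hmox1 gene, stood at 0.86 and 1.26 times the 75th percentile on the choline-deficient and choline-sufficient arrays, a difference of -0.55. The higher gene was Bach2, at 0.59, with 0.070 times the 75th percentile on the choline-deficient and 0.046 times on the choline-sufficient array. It was 0.27 under the choice that lowered it furthest, and 0 of the 15 genes were higher past 1.5-fold with median scaling, quantile normalization or normexp.

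A list of 29 further genes known as NRF2 targets had 28 measured members, with 8 higher and 4 lower past 1.5-fold, beside shares of 14.8% and 14.1% over all genes. Their median was -0.02, against -0.10 over all genes, and lay between -0.14 and 0.25 over the other processing choices. Aox1, encoding aldehyde oxidase, differed by 1.83, Idh1, encoding the cytosolic NADP-dependent isocitrate dehydrogenase, by 1.79, and Blvrb, encoding a biliverdin reductase, by 1.51. The glutathione transferase genes Gsta4 and Gstm1 followed with 1.33 and 1.23, and the other higher genes were Aldh3a1 at 0.97, Ephx1 at 0.73 and G6pdx at 0.59, which was 0.47 with median scaling. On the lower side Abcc4, encoding an export pump for organic anions, differed by -1.33. Slc7a11, whose product imports the cystine used for glutathione, stood at 0.35 times the 75th percentile on the choline-deficient and 0.65 times on the choline-sufficient array, a difference of -0.88. The ferritin light chain gene Ftl1 averaged -0.77, but its 2 probes gave -1.30 and -0.25, so the call rests on the probe at -1.30. Ugt1a6a, encoding a glucuronosyltransferase, was the other lower gene, at -0.91 ± 0.36. It stood at only 0.0041 times the 75th percentile on the choline-deficient and 0.0077 times on the choline-sufficient array, and was short of 1.5-fold, at -0.43, under another processing choice. Of the NADPH-producing enzymes of the pentose phosphate pathway, G6pdx was thus at 0.59 and Pgd at -0.06, which turned to 0.21 with spike-in scaling.

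Genes of enzymes that act on heme or biliverdin differed in direction. Hmox1 was lower by 1.26 in log2, its constitutive counterpart Hmox2 differed by -0.24 and turned to 0.03 with spike-in scaling, and Blvrb and Blvra, whose products act on biliverdin, were at 1.51 and 0.24. The gap between inducible and constitutive heme oxygenase was larger than the scanner error of either.

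Glutathione and thioredoxin genes outside the 10 were read from a list of 25, of which 23 were measured. Past 1.5-fold 2 were higher and 1 was lower, beside shares of 14.8% and 14.1% over all genes. There were 4 higher and 0 lower after cyclic loess and with spike-in scaling, and 2 higher and 3 lower with median scaling. Those counts have no share over all genes beside them. The median was 0.07, against -0.10 over all genes, with a range of -0.07 to 0.34 over the other processing choices. Glrx, encoding the cytosolic glutaredoxin, stood at 1.14 times the 75th percentile on the choline-deficient and 0.39 times on the choline-sufficient array, a log2 difference of 1.54 ± 0.20. Txnrd2, the gene of the mitochondrial thioredoxin reductase, differed by 1.03, where the cytosolic Txnrd1 differed by -1.03. The value of Txnrd2 was 0.48, short of 1.5-fold, under the choice that lowered it furthest. Its substrate gene Txn2 differed by -0.64, or -0.37 with spike-in scaling, and the peroxiredoxin gene Prdx6 by -0.57. The 4 Prdx6 probes lay between -0.78 and -0.10, and the gene was at -0.30 under the choice that raised it furthest. Gss, which encodes the enzyme of the last step of glutathione synthesis, differed by 0.13, against -0.86 for Gclc.

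**Figure D4:**
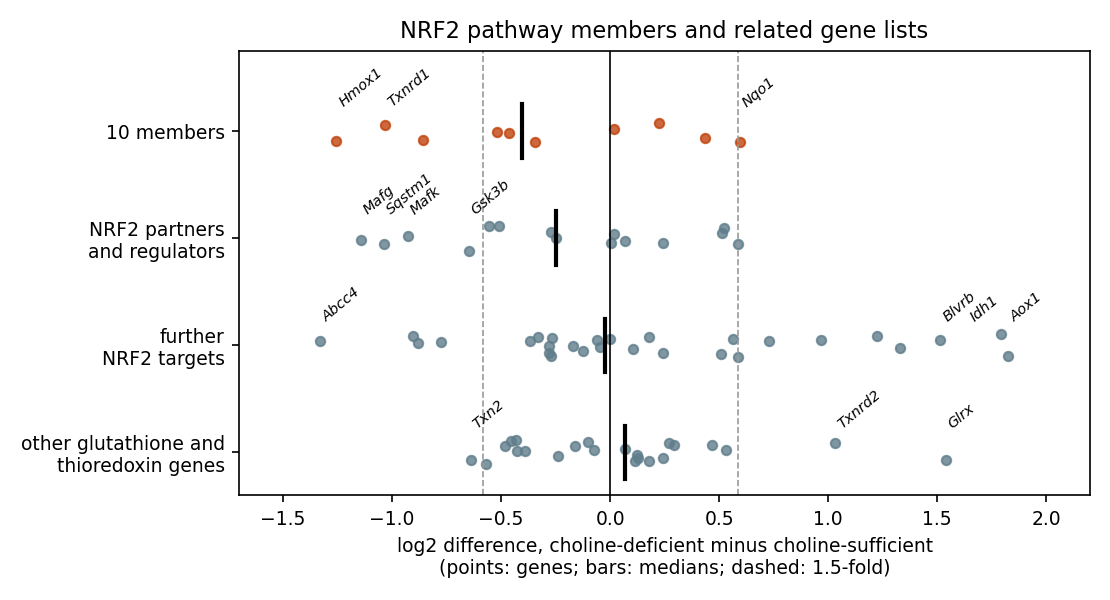
Log2 difference of each measured gene, choline-deficient minus choline-sufficient, for the 10 members, 15 partners and regulators, 28 further targets and 23 other glutathione and thioredoxin genes, with medians as bars. Medians were -0.41, -0.25, -0.02 and 0.07, and each list spans both sides of 0.

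RefSeq promoter windows on GRCm38.p6, from 250 bases before to 50 after a start site, were used for 7 of the 10 genes, with 3 windows for Txnrd1, and those of Gsr, Hmox1 and Gclc were not used here. They were searched on both strands for the core of the antioxidant response element, TGACNNNGC, and for the fuller site of NRF2 with a small MAF, TGANTCAGC. The sites overlap where the free base of the fuller site is C, and the fuller site contains the AP-1 site TGANTCA. The core was found in 4 of the 9 windows, those of Nfe2l2, Gclm and Srxn1 and 1 of Txnrd1, while 12.4% of all 32851 windows of this length hold it. The fuller site was found in 2 of the 9 windows, those of Srxn1 and Osgin1, and in 1.19% of all windows. The log2 differences of these 5 genes were 0.23 for Osgin1, 0.02 for Nfe2l2, -0.35 for Srxn1, -0.52 for Gclm and -1.03 for Txnrd1. The windows of Nqo1 and Keap1 held neither, which says only that the letters are not in those 300 bases. A match is a run of letters and not a measured binding site. The windows with the fuller site are shown with that of Txnrd1, the gene lowest among those with a match, and capitals mark the matches. They are Srxn1 (chr2:152105274-152105573, plus strand), Osgin1 (chr8:119436897-119437196, plus strand) and Txnrd1 (chr10:82858956-82859255, plus strand).
Srxn1 promoter: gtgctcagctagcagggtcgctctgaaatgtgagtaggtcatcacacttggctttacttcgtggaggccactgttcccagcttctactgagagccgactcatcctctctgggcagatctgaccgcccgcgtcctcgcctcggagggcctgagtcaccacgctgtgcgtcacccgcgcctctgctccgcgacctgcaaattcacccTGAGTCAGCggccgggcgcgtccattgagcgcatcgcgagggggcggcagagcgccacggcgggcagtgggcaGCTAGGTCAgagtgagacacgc
Osgin1 promoter: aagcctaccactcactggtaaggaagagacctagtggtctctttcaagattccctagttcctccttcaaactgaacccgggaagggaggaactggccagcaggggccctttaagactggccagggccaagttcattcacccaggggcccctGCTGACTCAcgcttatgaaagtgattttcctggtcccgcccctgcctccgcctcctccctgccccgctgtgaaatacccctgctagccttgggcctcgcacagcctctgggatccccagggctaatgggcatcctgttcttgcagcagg
Txnrd1 promoter: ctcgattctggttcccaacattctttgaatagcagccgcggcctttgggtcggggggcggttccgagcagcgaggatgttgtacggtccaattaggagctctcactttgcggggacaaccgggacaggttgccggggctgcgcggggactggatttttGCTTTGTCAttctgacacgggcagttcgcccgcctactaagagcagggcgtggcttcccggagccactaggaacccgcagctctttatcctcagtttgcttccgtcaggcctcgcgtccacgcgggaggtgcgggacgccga
The Srxn1 fuller site begins at position -45 from the start site of its window and that of Osgin1 at position -99. The Osgin1 window and the Txnrd1 window shown belong to start sites inside the genes. In RefSeq these genes begin further upstream, at 119425882 for Osgin1 and 82833951 for Txnrd1.

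**Figure D5:**
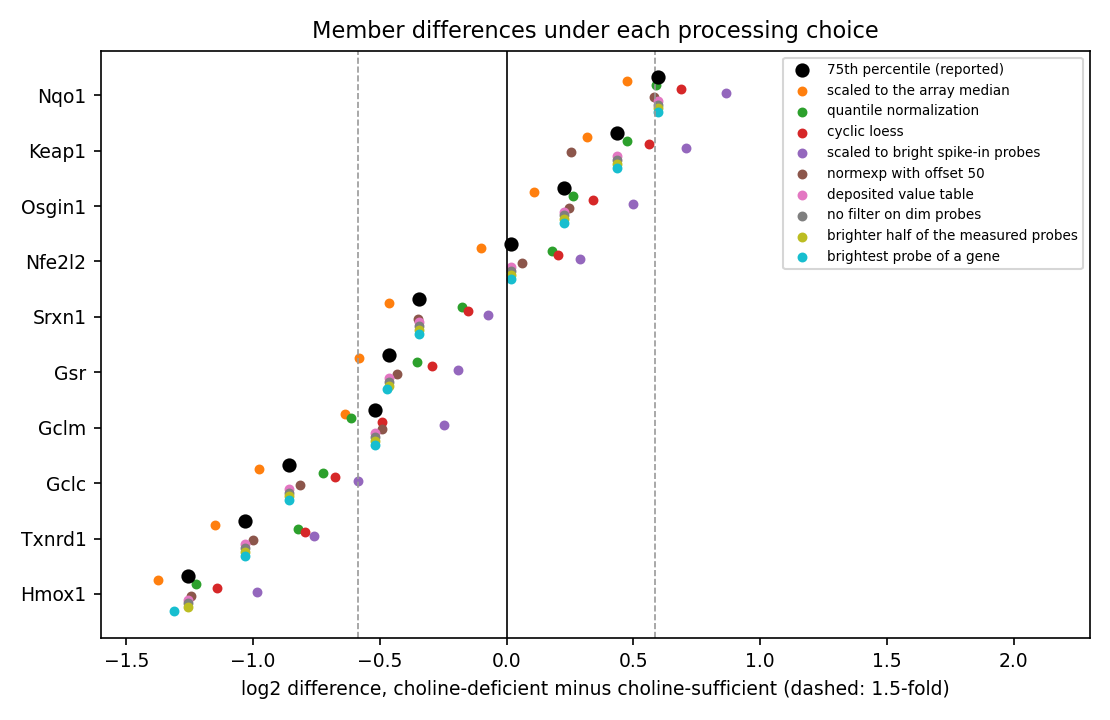
Log2 difference of each NRF2 pathway gene, choline-deficient minus choline-sufficient, as reported (black) and under 9 other processing choices (colours), with dashed lines at 1.5-fold. Hmox1, Txnrd1 and Gclc stay left of the lower line under every choice drawn, Nfe2l2 crosses 0, and Nqo1 moves between 0.48 and 0.87.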

How the data were processed

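Both samples were hybridised to 1 Agilent array each. Per the file headers and the submitters' processing notes, Agilent Feature Extraction 12.1.1.1 produced the scanner output. The deposited intensity values are background-subtracted and detrended within an array, with no normalization between arrays. The table of values deposited by the authors is a ratio: each processed signal was divided by 1609 on the choline-deficient and 1280 on the choline-sufficient array. Its medians were 0.0358 and 0.0337, and it is linear, uncentred and in the direction of the scanner values.

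Each processed signal was divided by the 75th percentile of its array, taken without control spots, and expressed as log2. Outlier spots (92 and 86) and control spots were left out. A probe was measured when at least 50% of its spots were well above background on both arrays and it was not saturated on either, as were 26463 of 39426 probes. Measured probes of a gene were averaged. A gene's error is the mean of its probes' errors. Over 268 probes with at least 8 spots above background, the SD of the log2 difference between spots had a median of 0.05. That covers noise within an array pair only, and the number of arrays limits precision. The accessions of all 10 genes carried the same symbol in a RefSeq table of GRCm38.p6. Probe positions are on mm9, and exon annotation of that build was not used here.

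The 10 genes and the lists were chosen with earlier results of these data known. Named are all 10 genes, and by rule the 4 largest differences of each further list. Gsta4, Gstm1, Slc7a11, Ftl1, Ugt1a6a, Aldh3a1, Ephx1, G6pdx, Pgd, Blvra, Hmox2, Gss, Bach1, Bach2, Maff and Cul3 were named after their values were seen. The promoter motifs were also chosen after the values were seen, and the gene pairs set against each other were not named beforehand. Alternatives were median, quantile, cyclic loess and spike-in scaling (5 bright probes), normexp (offset 50, limma 3.58.1), the values deposited by the authors, leaving out the filter on dim probes, keeping the brighter 50% of measured probes, and taking the brightest probe of a gene. Python 3.11.15, numpy 2.4.6, pandas 2.3.3 and R 4.3.3 were used, and the summaries were tested on simulated data.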

Additional observations from a re-analysis of the deposited data

How the results depend on the processing

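Under the 9 other processing choices, 78 values of the 10 genes stayed within the scanner error of the reported value and 12 moved further. Of the 12, 10 were with spike-in scaling and the others were for Txnrd1 after quantile normalization and cyclic loess. The 78 are not separate checks. Leaving out the dim-probe filter and keeping the brighter probes returned the reported values, and the deposited values have nearly the same scaling. Taking the brightest probe could change only Hmox1 and Gsr. Median and spike-in scaling shift all genes alike, so each gave 1 outcome for all 10, set by the shift and the error of 0.20. Quantile normalization, cyclic loess and normexp could move genes separately. The 4 genes counted at 1.5-fold kept their direction under each choice. The count at least 1.5-fold higher, 1 as reported, was 0 with median scaling, 0 after normexp, 2 with spike-in scaling and 0 at 2-fold. The count at least 1.5-fold lower was 3 or 4 under each choice and 2 at 2-fold. All measured genes shift with the scaling too: 65.5% of them lay below 0 with median scaling, 68.7% after normexp and 35.2% with spike-in scaling. Shares of all genes past 1.5-fold were counted under the reported scaling only, here and for the lists. The count at least 2-fold lower, 2 as reported, was 1 after quantile normalization, 1 after cyclic loess and 0 with spike-in scaling, and the count at least 2-fold higher was 0 throughout. The median over the 10 genes, -0.41 as reported, was -0.13 with spike-in scaling. Median and spike-in scaling move all genes alike, by -0.12 and 0.27, so the distance of the median of the 10 genes from that of all genes, -0.31, is the same under both, and was -0.17 after quantile normalization. A fold size does not enter a median, so that alternative was not run for it. No paired analysis was possible because each condition has 1 array.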
